A study of Mus musculus with 11 samples.

Results

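Pck1, Gpd1, Aqp7 and Gyk are 4 genes through which fat cells make, convert and move glycerol and its phosphate. They were followed here through every probe set annotated to them on mouse oligonucleotide arrays. Of the 4 genes 3 were measured, by 4 of the 12422 probe sets that are not controls: 1 for Pck1 (160481_at), 2 for Gpd1 (92592_at and 161753_f_at) and 1 for Aqp7 (101859_at). The annotation used pairs 0 probe sets with Gyk, whose current symbol is Gk, so its level was not analysed here. The genes were chosen because the Pck1 signal was seen to be graded between the drugs of this study. The drug differences of Pck1 are therefore given as a description, with no test.

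The product of Pck1, cytosolic phosphoenolpyruvate carboxykinase, turns oxaloacetate into phosphoenolpyruvate. In liver this leads towards glucose; in adipocytes it leads through the lower steps of glycolysis run backwards to dihydroxyacetone phosphate, a route called glyceroneogenesis. The enzyme encoded by Gpd1 reduces that intermediate to glycerol 3-phosphate, the backbone on which fatty acids are esterified into triglyceride. Aqp7 encodes the channel through which glycerol from lipolysis leaves the fat cell, and Gyk the kinase that could phosphorylate it again. Pck1, Aqp7 and Gyk are known in mouse adipocytes as target genes of the nuclear receptor PPARγ, to which thiazolidinediones bind.

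The 11 arrays hold total RNA of 3T3-L1 cells, a cloned mouse fibroblast line that can be turned into adipocytes. The cells had pioglitazone at 20 µM (2 arrays), rosiglitazone at 1 µM (3 arrays), troglitazone at 20 µM (3 arrays) or vehicle, which was 0.1% DMSO (3 arrays), each for 24 h. The array titles fall into 2 sets: set 1 holds replicates 1 and 2 of every group, and set 2 holds replicate 4 of rosiglitazone, troglitazone and vehicle. Only pioglitazone and troglitazone were given at a matched dose, so rosiglitazone values are set beside the others with no comparison of potency. The labels do not state whether the cells had been differentiated, or whether replicates came from separate cultures, so p-values measure only the spread between these samples.

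Values are linear signals that the authors had scaled to a common mean, and the floor used for dim signals was 73.7. The median signal of an array lay between 162.8 and 243.5. Of 10 adipocyte markers measured, 10 lay above the floor on all 3 vehicle arrays, with Adipoq at a mean signal of 46880. Only 1 of 7 hepatocyte markers, Cyp2e1, and 2 of 8 kidney markers, Slc34a1 and Aqp1, did so, from organs where Pck1 is known to be high. Summed signals of the 10 adipocyte markers were 95490 to 112800 with pioglitazone, 96940 to 127100 with rosiglitazone and 79660 to 101100 with troglitazone, against 94280 to 115900 with vehicle. The sum of 9 preadipocyte and fibroblast markers was 4593 to 5536, 5762 to 6234 and 4131 to 5738 with the 3 drugs in the same order, against 9078 to 10330 with vehicle. Of these 9 markers 7 lay above the floor on all 3 vehicle arrays, and Pdgfrb and Cd34 on 2 of them. Of 7 macrophage markers 3 did so on all 3 vehicle arrays, with summed signals of 2764 to 4570, 1712 to 4360 and 1804 to 2963 with the drugs in that order, against 2160 to 3835 with vehicle. The part of this shift in the results below was not tested, and fewer cells of a type cannot be told apart from less RNA per cell. Rosiglitazone replicate 2 had the lowest median correlation with the other arrays (0.841), and pioglitazone replicate 2 the highest ratio of 3' over 5' signal of the actin control probes (4.86).

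The sequences around the starts of Pck1 and Aqp7 are shown because these are the measured members known as PPARγ targets. Each window runs from 250 bases before to 50 after the annotated start, 5′ to 3′ on the gene's strand, as given by RefSeq for GRCm38.p6. RefSeq windows were matched for 3 of the 4 genes (Pck1, Aqp7 and Gk) and Gpd1 is named only. The Pck1 window lies at chr2:173152823-173153122 on the plus strand. The window of the more downstream of the starts listed for Aqp7 lies at chr4:41047913-41048212 on the minus strand. Capitals mark matches, on either strand, to the direct repeat bound by PPARγ with its partner RXR (2 copies of AGGTCA in the same direction with 1 base between them, up to 2 letters different), to its single element AGGTCA, or to the cyclic AMP response element TGACGTCA (up to 1 letter different).
Pck1: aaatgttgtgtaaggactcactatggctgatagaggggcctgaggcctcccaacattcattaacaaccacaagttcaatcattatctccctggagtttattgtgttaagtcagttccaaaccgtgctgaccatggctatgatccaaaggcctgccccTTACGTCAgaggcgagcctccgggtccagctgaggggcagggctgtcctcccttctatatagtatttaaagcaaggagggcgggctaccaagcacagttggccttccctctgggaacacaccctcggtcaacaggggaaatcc
Aqp7: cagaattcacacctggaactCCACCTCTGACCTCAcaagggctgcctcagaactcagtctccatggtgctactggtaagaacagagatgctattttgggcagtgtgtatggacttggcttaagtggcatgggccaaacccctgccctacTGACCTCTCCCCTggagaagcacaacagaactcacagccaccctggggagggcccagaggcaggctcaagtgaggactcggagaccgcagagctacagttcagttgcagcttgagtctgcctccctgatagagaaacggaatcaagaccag

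The Pck1 window held 1 match, TTACGTCA, which begins 93 bases before the start and differs from TGACGTCA by 1 letter. It held no match to AGGTCA or to the direct repeat. The Aqp7 window held 2 matches to the direct repeat, each with 2 letters different, which begin 230 and 101 bases before the start. The first of these overlaps a match to the cyclic AMP element, TGACCTCA, and each contains 1 exact AGGTCA on the minus strand of the gene. Of the 2 direct repeat matches, the window of the other Aqp7 start, which is not shown, held only the first. There it begins 56 bases before the start. Of 32851 windows in the table, 3.86% held the direct repeat, 16.3% AGGTCA and 12.5% the cyclic AMP element under the same rules. A match in these letters is no evidence of binding, and the PPARγ elements described for rodent Pck1 lie further upstream than this window.

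Pck1 had the highest signal with pioglitazone, a middle one with rosiglitazone, and with troglitazone a signal in the range of vehicle. The signal was 6331.3 and 6603 on the pioglitazone arrays. It was 3746.4, 4246.8 and 3012.6 on rosiglitazone replicates 1, 2 and 4. It was 1695.8, 1913.7 and 1356 on troglitazone replicates 1, 2 and 4, against 1717.7, 1016.2 and 1988.5 on vehicle replicates 1, 2 and 4. Both pioglitazone arrays lay above every rosiglitazone array, and every rosiglitazone array lay above every troglitazone and every vehicle array, whereas the troglitazone and vehicle arrays overlapped. The group means were 6467 ± 192.1 (SD, n = 2) with pioglitazone, 3669 ± 620.8 (n = 3) with rosiglitazone and 1655 ± 281.1 (n = 3) with troglitazone, against 1574 ± 501.8 (n = 3) with vehicle. Relative to the mean the spread was widest in the vehicle group, where the SD was 31.9% of the mean, and narrowest with pioglitazone (2.97%).

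**Figure D1:**
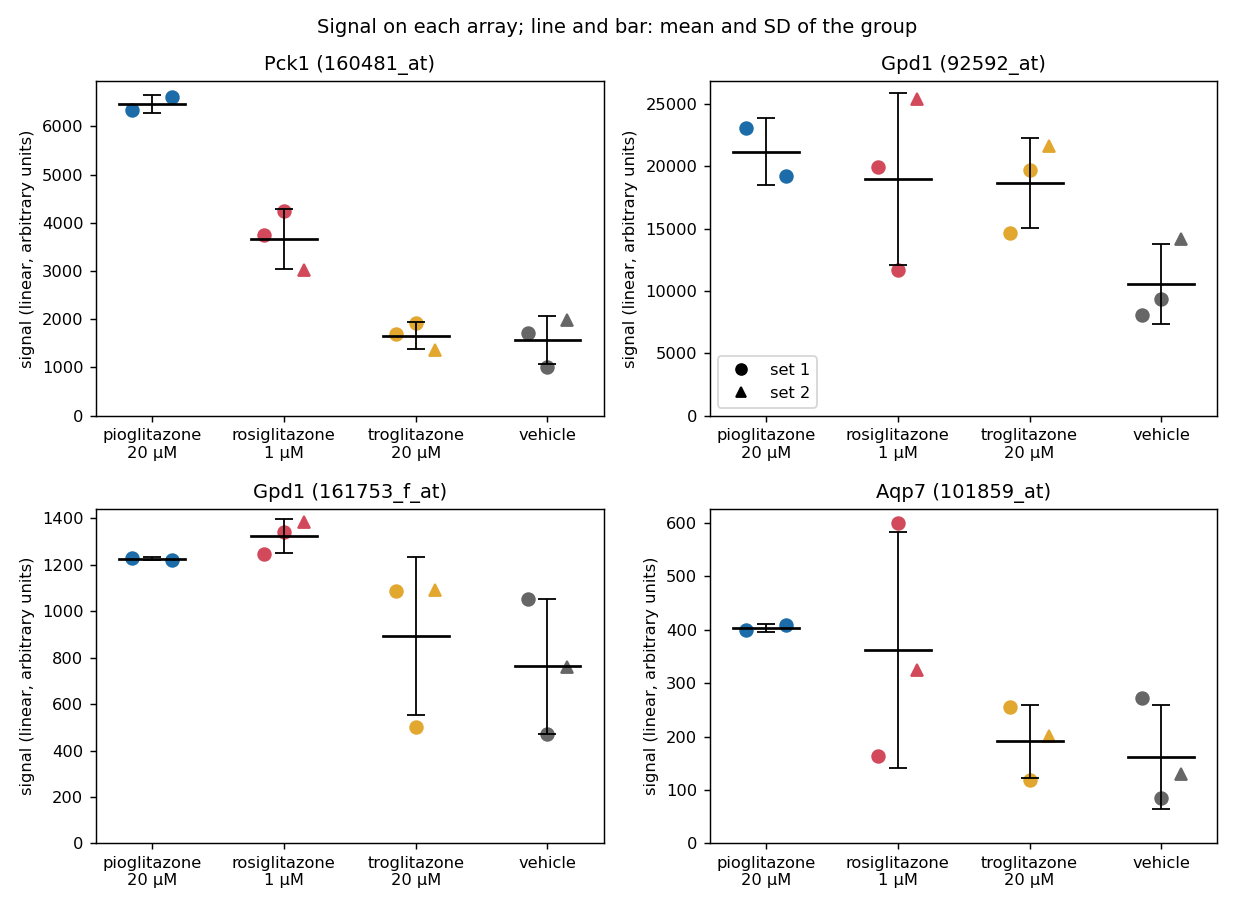
Signal on each array (linear, arbitrary units) of the 4 probe sets by group; circles are set 1, triangles set 2, and the line and bar are the group mean and SD (n = 2 with pioglitazone, 3 otherwise). Pck1 falls into 3 levels, at 6331.3 and above, between 3012.6 and 4246.8, and at 1988.5 and below, while Aqp7 and the dimmer Gpd1 probe set overlap between groups.

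In the linear model with a term for the set, Pck1 was 4.20-fold higher with pioglitazone than with vehicle, a log2 difference of 2.07 ± 0.26 (SE). The log2 difference from vehicle was 1.26 ± 0.23 with rosiglitazone, or 2.4-fold, and 0.11 ± 0.23 with troglitazone, or 1.08-fold. At the matched dose of 20 µM, pioglitazone stood 3.88-fold above troglitazone (1.96 ± 0.26). These are the values that chose the gene. For background, 9.07% of all 11739 tested probe sets had both pioglitazone arrays above every vehicle array, 4.78% had every rosiglitazone array so, and 4.77% every troglitazone array. The full order seen for Pck1 was shared by 0.0341% of them, and nothing is read from these shares, because Pck1 was picked on its order. Besides Pck1 this order was held by Ogdh, Cdc37 and Dpysl4, genes named only because they share it.

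The level of vehicle replicate 2 weighed on these differences. Without that array the log2 difference of Pck1 from vehicle was 1.69 with pioglitazone and -0.21 with troglitazone, so the small positive value with troglitazone changed sign. The difference between pioglitazone and troglitazone lay between 1.84 and 2.08 when each array was left out in turn. It draws on the vehicle arrays only through the set term, and was 1.90 without vehicle replicate 2 and 1.84 without vehicle replicate 4. Without the arrays that stand apart, rosiglitazone and pioglitazone replicate 2, the 4 log2 differences of Pck1 moved by less than the spread between replicates. The pioglitazone arrays had Pck1 signals of 6331.3 and 6603 and actin ratios of 1.91 and 4.86. With 2 arrays it cannot be told whether the ratio weighs on the signal.

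The sizes for Pck1 were not the same in each set, which is a description, since set 2 has 1 array a group. In set 1 its geometric mean signal was 4.89-fold that of vehicle with pioglitazone, 3.02-fold with rosiglitazone and 1.36-fold with troglitazone (2 arrays each). In set 2, with 1 array a group, the ratio was 1.52 with rosiglitazone and 0.682 with troglitazone. On the log2 scale the difference from vehicle in set 2 minus that in set 1 was -0.995 ± 0.43 (SE) with rosiglitazone and -1 ± 0.43 with troglitazone. Both values rest on the same single vehicle array of set 2, in which Pck1 stood at 1988.5, the highest of the vehicle group. Rosiglitazone was above troglitazone in each set, with 3012.6 against 1356 in set 2.

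Gpd1 rose with all 3 drugs by its brighter probe set and is the step that yields glycerol 3-phosphate itself. Probe set 92592_at had signals of 23057.8 and 19256.1 with pioglitazone. It had 19915.5, 11710.1 and 25415.1 on rosiglitazone replicates 1, 2 and 4. It had 14625.3, 19693.5 and 21628.3 on troglitazone replicates 1, 2 and 4, against 8044.8, 9387.5 and 14156.5 on vehicle replicates 1, 2 and 4. Pioglitazone and troglitazone arrays lay above every vehicle array, whereas rosiglitazone replicate 2 lay below vehicle replicate 4. Within set 1 the rosiglitazone arrays, at 11710.1 and 19915.5, were both above the vehicle arrays, at 8044.8 and 9387.5.

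Gpd1 (92592_at) was 2.37-fold higher than vehicle with pioglitazone, a log2 difference of 1.24 ± 0.21 (SE, limma adjusted p = 0.00838). It was 1.77-fold higher with rosiglitazone (0.82 ± 0.18, adjusted p = 0.0379) and 1.80-fold higher with troglitazone (0.85 ± 0.18, adjusted p = 0.033). Over all tested probe sets, 0.903%, 1.35% and 1.33% passed an adjusted p of 0.05 with pioglitazone, rosiglitazone and troglitazone. Those that rose were 0.63%, 0.784% and 0.775%, and those that fell 0.273%, 0.571% and 0.554%. At the matched dose, pioglitazone minus troglitazone was 0.39 ± 0.21, with a 95% interval from -0.06 to 0.85 (adjusted p = 0.858), in a contrast where 0.00852% of all probe sets were higher and 0.0256% lower. This was the only pair of drugs at a matched dose. These data thus neither showed a difference between these drugs for Gpd1 nor that they act alike. Without vehicle replicate 1 or 2, or pioglitazone replicate 1, the pioglitazone call was lost (adjusted p up to 0.142). The calls with rosiglitazone and troglitazone were each lost in 9 of 11 fits with 1 array left out (up to 0.228 and 0.225), although the log2 difference stayed at 0.64 or above and 0.69 or above.

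The other probe set of Gpd1, 161753_f_at, was dimmer and passed with none of the drugs. Its suffix marks probes shared within a group of related sequences, so its signal is less specific. Its signal was 1229.7 and 1221.9 with pioglitazone, 1244.2 to 1384 with rosiglitazone and 499.8 to 1091.9 with troglitazone, against 472.3 to 1053.6 with vehicle. Pioglitazone and rosiglitazone arrays lay above every vehicle array, and troglitazone arrays overlapped with vehicle. The log2 differences were 0.85 ± 0.36 (adjusted p = 0.448), 0.87 ± 0.32 (adjusted p = 0.293) and 0.22 ± 0.32 (adjusted p = 0.951). The probe sets of Gpd1 thus had like values with pioglitazone and rosiglitazone relative to their errors, and with troglitazone 0.85 by the bright one and 0.22 by the dim one. That with troglitazone turned negative without vehicle replicate 2 (-0.07) or troglitazone replicate 1 (-0.03).

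**Figure D2:**
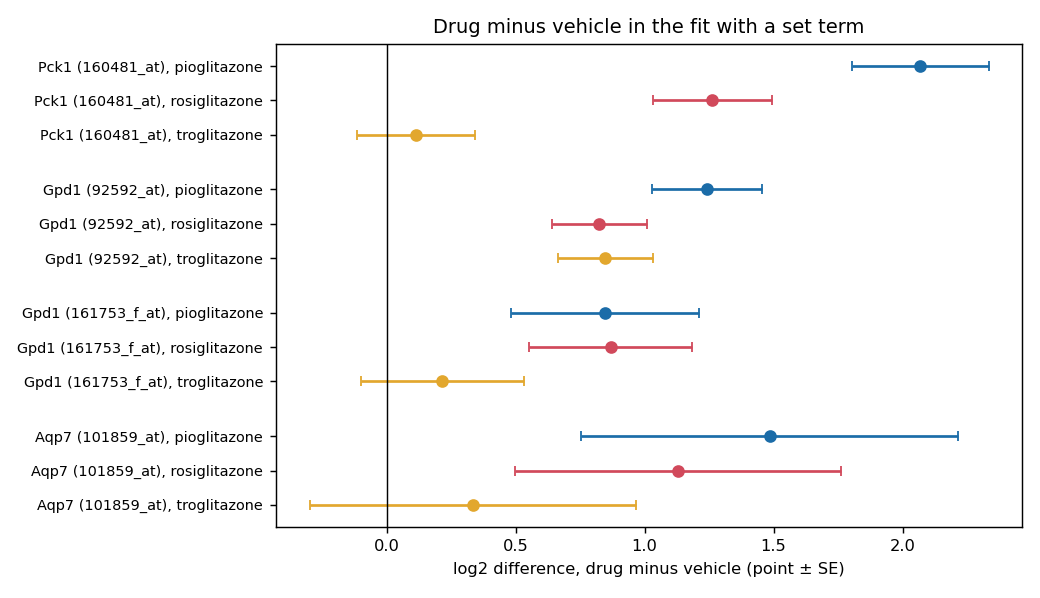
Log2 difference from vehicle with its standard error for each probe set and drug, from the model with a set term. Pck1 lies at 2.07 with pioglitazone and 0.11 with troglitazone, whereas the bright Gpd1 probe set stays between 0.82 and 1.24.

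Aqp7 was dim, and none of its differences passed. The signal was 398.9 and 409 with pioglitazone. It was 163, 600.1 and 324.2 on rosiglitazone replicates 1, 2 and 4. It was 255.1, 118.2 and 200.4 on troglitazone replicates 1, 2 and 4, against 272, 85.6 and 129.7 on vehicle replicates 1, 2 and 4. Both pioglitazone arrays lay above every vehicle array, 1 rosiglitazone array lay inside the vehicle range and the others above it, and troglitazone lay within it. The log2 difference from vehicle was 1.48 ± 0.73 with pioglitazone (limma adjusted p = 0.539), 1.13 ± 0.63 with rosiglitazone (adjusted p = 0.582) and 0.33 ± 0.63 with troglitazone (adjusted p = 0.968). Pioglitazone minus troglitazone was 1.15 with a 95% interval from -0.40 to 2.71 (adjusted p = 0.888), so a difference of the size seen for Pck1 is inside the interval. The value with troglitazone fell to -0.08 without vehicle replicate 2, whose Aqp7 signal of 85.6 was the nearest to the floor.

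The mean signals stood in the order pioglitazone, rosiglitazone, troglitazone and vehicle from high to low for Pck1, Aqp7 and the bright probe set of Gpd1. These means hold unequal mixes of the sets. In the model with a set term that Gpd1 probe set stood at 0.82 with rosiglitazone and 0.85 with troglitazone, so the order did not hold there. The dim probe set of Gpd1 had a higher mean with rosiglitazone (1323) than with pioglitazone (1226). The overlap between arrays was not the same for the 3 measured genes. For Pck1 no neighbours overlapped from pioglitazone to rosiglitazone to troglitazone, and troglitazone and vehicle did. For Gpd1 by its bright probe set the means were 21160 ± 2688 (SD, n = 2), 19010 ± 6897 (n = 3) and 18650 ± 3616 (n = 3) with pioglitazone, rosiglitazone and troglitazone, and no drug was set apart from the next by more than these errors. Vehicle was lowest at 10530 ± 3212 (n = 3). For Aqp7 the means were 404 ± 7.14 (SD, n = 2), 362.4 ± 221 (n = 3) and 191.2 ± 68.9 (n = 3), against 162.4 ± 97.4 (n = 3) with vehicle, each mean within the errors of the next. Probe sets bind their targets with unequal strength, so only the orders are set side by side, not the levels of one gene against another.

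Among the other genes of glycerol metabolism, 34 were measured from 4 lists, covering glyceroneogenesis, exchange of glycerol and its phosphate, esterification, and lipolysis. With pioglitazone 2 of the 34 rose and 0 fell, with rosiglitazone 5 rose and 0 fell, and with troglitazone 5 rose and 0 fell. At 1 probe set per gene, 1.06%, 1.61% and 1.63% of all 7962 genes passed with the 3 drugs in that order, 0.728%, 0.98% and 0.967% as rises. The median log2 difference of the 34 genes was 0.09, 0.18 and -0.03, beside -0.08, -0.01 and -0.03 over all genes. Of the calls, 1 with each drug held when every array was left out in turn: Abhd5 with pioglitazone and rosiglitazone, and Tpi1 with troglitazone. Counts ranged from 1 to 2, from 1 to 6 and from 1 to 5 with 1 array left out, so the counts over these 34 genes are not stable.

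In the glyceroneogenesis list the genes that passed lie in the stretch that glycolysis shares, between phosphoenolpyruvate and dihydroxyacetone phosphate, together with Mdh2. Of 15 genes other than the members, 1 rose with pioglitazone, 3 with rosiglitazone and 3 with troglitazone, and 0 fell with any drug. Tpi1, the isomerase next to the Gpd1 step, had signals of 17779.8 and 19232.4 with pioglitazone, 17347 to 20872.7 with rosiglitazone and 19096.7 to 21904.1 with troglitazone, against 9670.6 to 12633.6 with vehicle. All its drug arrays lay above all vehicle arrays, and the rise was 1.56-fold (limma adjusted p = 0.0401), 1.64-fold (adjusted p = 0.00578) and 1.79-fold (adjusted p = 0.00109). The share of all probe sets with every drug array above vehicle was not counted. The call with pioglitazone was lost in each of the 11 fits with 1 array left out (up to 0.184), that with rosiglitazone without vehicle replicate 4 or rosiglitazone replicate 4 or 2 (up to 0.0746).

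Pgam1, phosphoglycerate mutase, rose with rosiglitazone (0.73 ± 0.15, limma adjusted p = 0.0213) and troglitazone (0.85 ± 0.15, adjusted p = 0.00674) and stood at 0.28 with pioglitazone. Pgk1, phosphoglycerate kinase, rose with troglitazone (0.96 ± 0.16, adjusted p = 0.00435), with signals of 15714.8 to 18358.5 against 7486.4 to 11352.2 with vehicle. Without passing, it stood at 0.35 with pioglitazone (adjusted p = 0.582) and 0.65 with rosiglitazone (adjusted p = 0.0639). Mdh2, mitochondrial malate dehydrogenase, rose with rosiglitazone by 0.47 ± 0.11 (adjusted p = 0.0458). Its value with pioglitazone was no smaller, at 0.557 ± 0.126, but did not pass (adjusted p = 0.0524). With troglitazone it stood at 0.235 (adjusted p = 0.592). The call of Pgam1 was lost in 6 and 4 of 11 fits with an array left out, with rosiglitazone and troglitazone in that order. That of Pgk1 was lost without vehicle replicate 4 or 2 or troglitazone replicate 4 (up to 0.0673), and that of Mdh2 in 9 of 11 fits. For Tpi1, Pgam1 and Pgk1 the values with troglitazone were at least as large as those with pioglitazone, and for Mdh2 the value was smaller. These genes were named because they passed, Pgam1 and Pgk1 with troglitazone and not with pioglitazone. Pck1, lowest with troglitazone, was chosen for its order, so nothing is read from setting them beside it. At the matched dose, 0 of the 34 genes passed between pioglitazone and troglitazone by limma, beside 0.0341% of all probe sets. An unadjusted p under 0.05 was seen for 9 of them. The share of all probe sets at that level was not counted, so nothing is read from the 9.

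Neither Pcx nor Pck2 passed with any drug. Pcx, pyruvate carboxylase, which makes oxaloacetate, differed from vehicle by 0.32 (limma adjusted p = 0.526), 0.14 (adjusted p = 0.771) and 0.03 (adjusted p = 0.999) with pioglitazone, rosiglitazone and troglitazone. Pck2, the mitochondrial form of the same enzyme, had signals of 465.6 and 495.5 with pioglitazone, 153.2 to 467.9 with rosiglitazone and 358.6 to 634.2 with troglitazone, against 477.5 to 743.9 with vehicle. Its log2 differences were -0.03 (adjusted p = 0.992), -1.05 (adjusted p = 0.253) and -0.39 (adjusted p = 0.886). Its rosiglitazone arrays all lay below the lowest vehicle array, the nearest at 467.9 against 477.5, and the pioglitazone and troglitazone arrays overlapped with vehicle. The share of all probe sets lying below vehicle in this way was not counted, so nothing is read from it. A dimmer probe set of Pck2 gave 0.18, -0.20 and -0.26.

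Exchange of glycerol and its phosphate was represented by Gpd2, the mitochondrial dehydrogenase that oxidises glycerol 3-phosphate, and by Aqp9, the glycerol channel of liver. Gpd2 differed from vehicle by -0.39 (limma adjusted p = 0.667), -0.63 (adjusted p = 0.231) and -0.41 (adjusted p = 0.667) with the 3 drugs. Its probe set is again of the shared kind. Aqp9 ranged from 23.2 to 419.1 over the 11 arrays, on either side of the floor, and gave no resolved difference. Of the 2 genes 0 passed in limma with each drug. An unadjusted p under 0.05 was seen for 1, with rosiglitazone, and the share of all genes at that level was not counted.

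**Figure D3:**
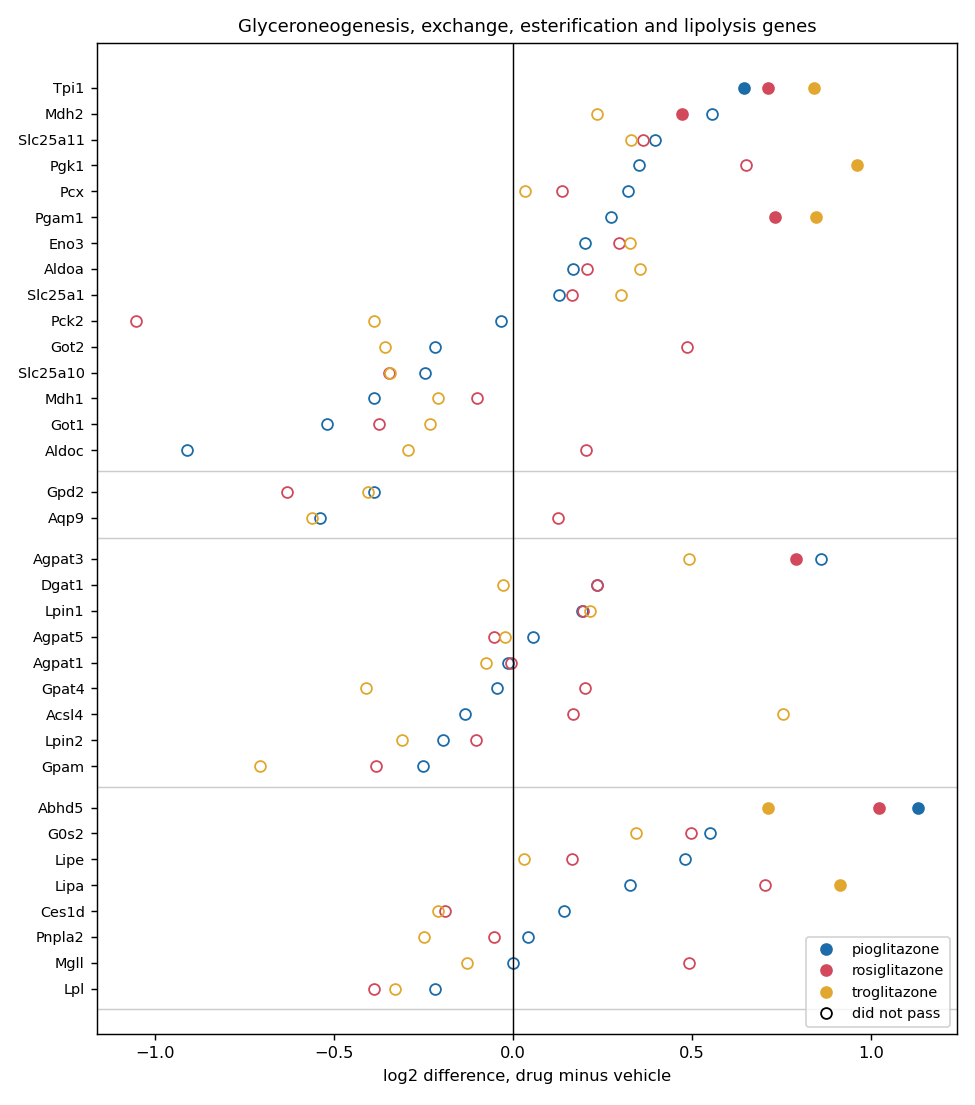
Log2 difference from vehicle of 34 genes in 4 blocks: glyceroneogenesis, exchange of glycerol and its phosphate, esterification, and lipolysis; filled points passed an adjusted p of 0.05 and open points did not. Tpi1 and Abhd5 are filled for all 3 drugs, and most other points are open.

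Esterification genes, which use glycerol 3-phosphate, showed 1 rise with rosiglitazone and none with the other drugs among 9 measured. Unadjusted limma p-values under 0.05 numbered 1 with pioglitazone, 2 with rosiglitazone and 3 with troglitazone, and the share of all genes at that level was not counted. The rise was of Agpat3, an acyltransferase, with signals of 2043.7 to 2908.4 with rosiglitazone against 1202.2 to 1779.2 with vehicle (0.79 ± 0.18, limma adjusted p = 0.036, lost in 9 of 11 fits with an array left out). Its value with pioglitazone was no smaller, at 0.86 ± 0.20, but did not pass (adjusted p = 0.0627). With troglitazone it stood at 0.49 (adjusted p = 0.329). The threshold thus does not set rosiglitazone apart from pioglitazone for Agpat3. Gpam, the mitochondrial acyltransferase of the first step, was lower with troglitazone without passing, at 3418.7, 3427.9 and 5582.5 against 5518.3, 6587.3 and 7836.8 with vehicle (-0.71 ± 0.17, adjusted p = 0.0578). Dgat1, which adds the last acyl chain, stood at 0.23 with pioglitazone (adjusted p = 0.686), 0.23 with rosiglitazone (adjusted p = 0.584) and -0.03 with troglitazone (adjusted p = 1), and its dimmer probe set at -0.38, -0.32 and -0.92.

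On the side of glycerol release, Abhd5, the protein that activates the triglyceride lipase, rose with every drug. Its signals were 5631.5 and 4322.8 with pioglitazone, 4365 to 4995.1 with rosiglitazone and 3401.7 to 4083.7 with troglitazone, against 2224.3 to 2488.6 with vehicle. No drug array overlapped with vehicle, a pattern whose share over all probe sets was not counted. The rises were 2.19-fold (limma adjusted p = 0.00249), 2.03-fold (adjusted p = 0.00121) and 1.64-fold (adjusted p = 0.018). The call with troglitazone was lost without any of the 3 vehicle arrays or without troglitazone replicate 4 or 1 (up to 0.138). Lipa, the lysosomal lipase, rose 1.88-fold with troglitazone (adjusted p = 0.0314, lost in 8 of 11 fits with an array left out). It stood 1.26-fold above vehicle with pioglitazone and 1.63-fold with rosiglitazone without passing (adjusted p = 0.715 and 0.121). Pnpla2, the lipase that Abhd5 activates, stood at 0.04, -0.05 and -0.25 with the drugs in order (adjusted p = 0.973, 0.915 and 0.638). Lipe, hormone-sensitive lipase, stood at 0.48 (adjusted p = 0.107), 0.16 (adjusted p = 0.646) and 0.03 (adjusted p = 0.997). Mgll, the lipase that frees glycerol, did not pass (adjusted p = 1, 0.606 and 0.982), and Lpl, the lipase outside the cell, did not either (adjusted p = 0.83, 0.482 and 0.705). Mgll stood at -0.001, 0.49 and -0.13, and its other probe set at -0.12, -0.85 and -0.15, with opposite signs for rosiglitazone. Lpl stood at -0.22, -0.39 and -0.33, and its other probe set at -0.52, -0.15 and -0.30.

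Several other known PPARγ targets of adipocytes rose with all 3 drugs, troglitazone included, and others passed with none. Of 16 measured, 6 rose with pioglitazone, 7 with rosiglitazone and 6 with troglitazone, and 0 fell with any drug, where rises over all genes were 0.728%, 0.98% and 0.967%. The medians were 0.30, 0.65 and 0.35, beside -0.08, -0.01 and -0.03 over all genes. Among those that passed with no drug, Adipoq stood at -0.134, -0.023 and -0.481 and Lpl at -0.219, -0.388 and -0.331. Cd36 stood at 0.109, 0.265 and -0.024, Plin4 at 0.259, -0.149 and 0.14, and Fabp4 at 0.315, 0.586 and 0.311. The counts include Fabp5, whose call with pioglitazone (adjusted p = 0.0446) was lost in each of the 11 fits with an array left out and whose call with rosiglitazone (adjusted p = 0.0169) was lost in 4. Pdk4, a kinase that holds back pyruvate oxidation, stood at 1.90 with pioglitazone (limma adjusted p = 0.00715), 1.47 with rosiglitazone (adjusted p = 0.0125) and 1.99 with troglitazone (adjusted p = 0.000765). Plin2, a lipid droplet protein, stood at 1.29 (adjusted p = 0.000901), 0.99 (adjusted p = 0.00138) and 1.57 (adjusted p = 2.13e-05) with the same drugs. Angptl4, an inhibitor of lipoprotein lipase, stood at 1.23, 1.16 and 1.12 (adjusted p = 0.00116, 0.000511 and 0.00034). Cidec, which enlarges lipid droplets, stood at 1.43, 1.16 and 1.06, and the peroxisomal thiolase Acaa1b at 2.29, 1.95 and 1.96. These 3 genes and Plin2 are given by their brightest probe set. Other tested probe sets did not all give the same picture: for Angptl4 they stood at 1.06, 1.03 and 1.00, at 0.20, 0.65 and 1.14, and at -0.71, -0.94 and -1.65, and for Acaa1b at 0.64, 1.16 and 1.21. The calls of Plin2, Angptl4, Cidec and Acaa1b held when each array was left out in turn, but with no intensity trend in the model only those of Acaa1b and that of Plin2 with troglitazone did. For Pdk4 the pioglitazone call needed vehicle replicate 1 and pioglitazone replicate 2 (up to 0.101 without either), and the rosiglitazone call was lost without vehicle replicate 4 or 1 or rosiglitazone replicate 4 or 1 (up to 0.131).

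At the matched dose, pioglitazone minus troglitazone ranged from -0.48 to 0.52 over these 16 targets, with a median of 0.12, and 0 passed in limma. An unadjusted p under 0.05 was seen for 3, and the share of all probe sets at that level was not counted. The interval was -0.77 to 0.57 for Pdk4, -0.62 to 0.06 for Plin2 and -0.01 to 0.67 for Acaa1b. Set beside the 1.96 of Pck1, with an interval from 1.39 to 2.52, each of these 3 intervals ends below that value. Other targets had wider intervals that overlapped with that of Pck1. They ran from -1.484 to 1.755 for Cyp4b1 and from -0.407 to 1.445 for Cyp4a10. Over all probe sets, 0.0341% passed in this contrast. Pck1 was chosen for this value, so its distance from the other targets is a description.

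**Figure D4:**
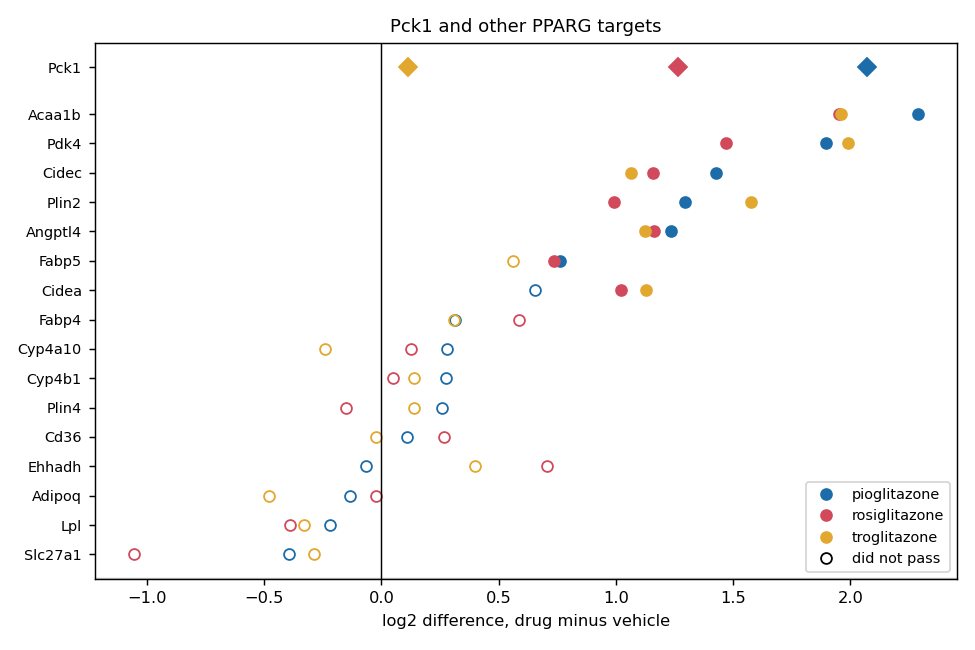
Log2 difference from vehicle of Pck1 (diamonds, not tested) and of 16 other PPARγ targets (circles, filled where the adjusted p was under 0.05) with each drug. The points of Pck1 spread from 0.11 to 2.07, and each other gene is shown by its brightest probe set.

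The receptor and other known regulators of Pck1 transcription were also read, and of 29 measured 3 fell and 0 rose with pioglitazone, 2 fell and 0 rose with rosiglitazone, and 3 fell and 1 rose with troglitazone. Over all genes 0.327%, 0.628% and 0.666% fell and 0.728%, 0.98% and 0.967% rose with the 3 drugs in that order. Pparg itself had signals of 462.2 and 511.4 with pioglitazone, 665 to 1053.7 with rosiglitazone and 472.7 to 737.9 with troglitazone, against 1728.7 to 2886.1 with vehicle. It fell with each drug (-1.93, -1.43 and -1.89, limma adjusted p = 0.000901, 0.00204 and 0.000133), and no drug array overlapped with vehicle. The share of all probe sets with every drug array below vehicle was not counted. Pioglitazone minus troglitazone was -0.04 for Pparg, with a 95% interval from -0.56 to 0.48. Srebf1, a lipogenic factor that represses Pck1 in liver, fell by 1.09, 1.09 and 0.95 (adjusted p = 0.00665, 0.00125 and 0.0032), the last of these lost without troglitazone replicate 4 (0.0525). All 3 calls of Srebf1 were also lost in set 1 alone and with no intensity trend, as were those of Pparg with rosiglitazone and Atf4 with troglitazone. Nrip1, a corepressor, fell with troglitazone (-1.27 ± 0.27, adjusted p = 0.0291) and was at -0.99 (adjusted p = 0.211) and -0.95 (adjusted p = 0.134) with pioglitazone and rosiglitazone. Its call was lost in 8 of 11 fits with an array left out.

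Cebpd fell with pioglitazone (-2.48 ± 0.45, limma adjusted p = 0.0138), with signals of 26, under the floor, and 176.2 against 620 to 724.2 with vehicle. That call was lost without any of the 3 vehicle arrays or without pioglitazone replicate 1 (up to 0.0948). Atf4, a stress factor, rose with troglitazone (0.73 ± 0.11, adjusted p = 0.00267). Rxra, the partner of PPARγ, stood at 0.67, 1.01 and 1.09 with pioglitazone, rosiglitazone and troglitazone without passing (adjusted p = 0.612, 0.221 and 0.19), and its other probe set at -0.01, -0.18 and -0.02. Cebpa stood at -0.10, 0.04 and -0.28 (adjusted p = 0.908, 0.947 and 0.592), and Cebpb at 0.44, 0.24 and 0.52 (adjusted p = 0.387, 0.627 and 0.152). The glucocorticoid receptor Nr3c1 (adjusted p = 0.736, 0.917 and 0.941) and Creb1, which binds the cyclic AMP element (adjusted p = 0.803, 0.964 and 0.999), did not pass. Nr3c1 lay under the floor on the vehicle arrays, at 45.5, 28.7 and 6.9, so a change could hardly be seen. Creb1 stood at 0.81, -0.13 and 0.15 by its brightest probe set. Its other probe sets differed, at -0.12, 0.59 and 1.17 and at -0.74, -1.03 and -0.43.

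Likeness to Pck1 was measured as the correlation, over the 11 arrays, of log2 signals from which the mean of each set had been taken. Set 2 has no pioglitazone array, so these means stand for different mixes of groups. Among 4425 genes above the floor on all arrays, the 10 most like Pck1 had r from 0.865 to 0.927, beside a median of -0.04 over all. They were Ndufa2, Ltc4s, Mrpl51, Ndufb5, Uqcc2, Ascc1, Lipe, Ran, Tubb6 and Vcp. Ndufa2 and Ndufb5 encode parts of mitochondrial complex I, Mrpl51 a protein of the mitochondrial ribosome, Uqcc2 a factor for assembling complex III, and Ltc4s leukotriene C4 synthase. The correlations with Pck1 were 0.71 for Aqp7, 0.61 for Gpd1 by 92592_at and 0.69 by 161753_f_at, and -0.47 for Pparg. The points of such a correlation share scaling, set and RNA quality, so it is a description.

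Their range was much smaller than that of Pck1. With pioglitazone the log2 differences from vehicle of the 10 genes lay between 0.47, for Vcp, and 0.87, for Mrpl51, beside 2.07 for Pck1. With rosiglitazone Mrpl51 stood at 0.63 and Ndufb5 at 0.53, and with troglitazone at 0.24 and 0.32. These genes were picked for following Pck1 over the same arrays, so their drug differences are a description, with no test. In set 1 Lipe had signals of 16218.2 and 15673.3 with pioglitazone, 12565.5 and 12723.2 with rosiglitazone and 11636.1 and 11548.8 with troglitazone, against 12043.5 and 11188.5 with vehicle.

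**Figure D5:**
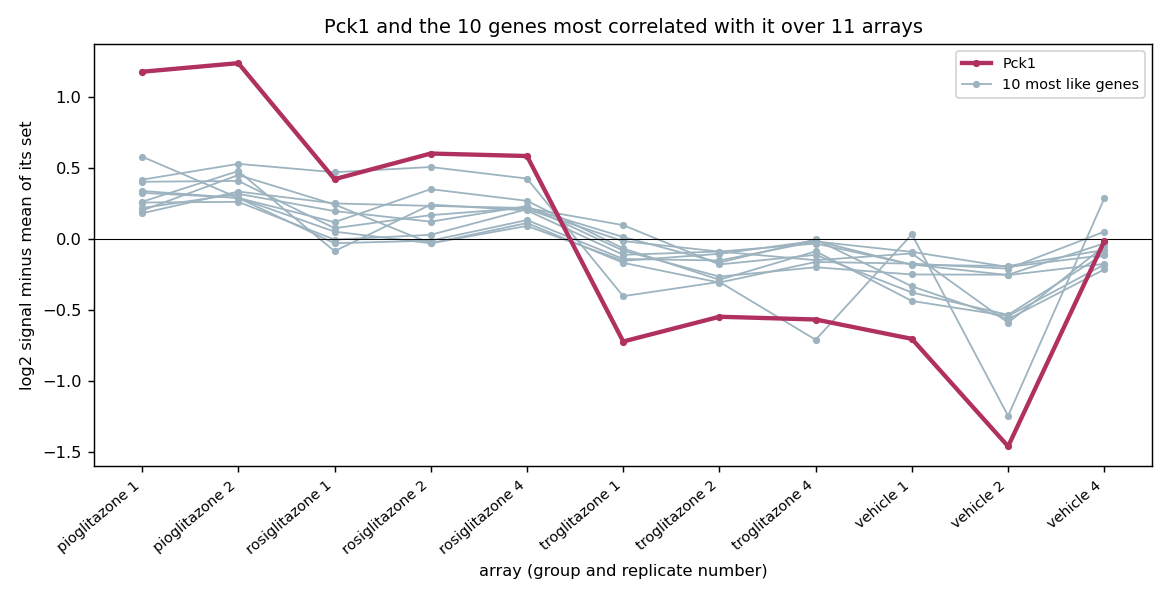
Log2 signal minus the mean of its set on each of the 11 arrays for Pck1 (thick line) and the 10 genes most correlated with it (thin lines). Each gene has its highest point on a pioglitazone array, and Pck1 has the widest swing, with its lowest point on vehicle replicate 2.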

How the data were processed

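The deposited values are probe set intensity on a linear scale, from 0.4 to 224475, already scaled by the authors, since the mean after trimming 2% at each end was 500.289 to 500.433 on every array. For the array software and the genome build, the sources used here give no name. Values were kept as deposited, raised to a floor of 73.7 (the 25th percentile) and turned into log2. Of 12488 probe sets 66 are controls, and 11739 were tested because 2 arrays or more exceeded the floor; all 44 values of the members lay above it. Of the probe sets that are not controls, 10833 have 1 gene, 396 several and 1193 none, and 10817 matched the GRCm38.p6 gene table.

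A linear model with group and set was fitted to all 11 arrays with limma 3.58.1 in R 4.3.3 (6 residual degrees of freedom, intensity trend, two-sided, Benjamini-Hochberg over all tested probe sets within each contrast, threshold 0.05). "Rose", "fell" and "passed" mean an adjusted p under it. Errors are standard errors for log2 values and standard deviations for signals. The fit was tested on simulated data. For differences between the sets each combination of group and set had its own mean (4 residual degrees of freedom).

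Members and lists were chosen with earlier results of these data known; list genes come from textbook knowledge. Named are all member probe sets, up to 4 passing genes per list and drug, 20 fixed genes (17 measured), and the 10 genes most like Pck1. Pdk4, Fabp5, Cidea, Adipoq, Cd36, Plin4, Fabp4, Cyp4b1 and Cyp4a10 were named outside this rule. A gene is represented by its brightest tested probe set. The number of arrays limits the precision, and falls towards the floor are understated. Alternatives were other scalings, floors and filters, other models, and leaving out arrays.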

Additional observations from a re-analysis of the deposited data

How the results depend on the processing

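The number of arrays limits what can be resolved. All 24 alternatives kept the size of Pck1 between pioglitazone and troglitazone within the spread between replicates (1.84 to 2.08). For Pck1 against vehicle, values with 1 array left out ranged from 1.69 to 2.29 with pioglitazone, 0.94 to 1.59 with rosiglitazone and -0.21 to 0.45 with troglitazone; the last changed sign without vehicle replicate 2 (-0.213). Aqp7 with troglitazone turned to -0.031 with a floor at the 50th percentile and ranged from -0.077 to 0.833 with 1 array left out. Gpd1 by 161753_f_at with troglitazone ranged from -0.073 to 0.577, negative without vehicle replicate 2 (-0.073) or troglitazone replicate 1 (-0.034). No call of this probe set or of Aqp7 changed.

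Gpd1 by 92592_at kept its direction everywhere and often lost its call. With 1 array left out it ranged from 1.11 to 1.37 with pioglitazone, 0.64 to 1.06 with rosiglitazone and 0.69 to 0.97 with troglitazone. With pioglitazone the call was lost with no filter (1.24), no set term (1.04), set 1 alone (1.28), no intensity trend (1.24) and a fit of only the groups compared (1.28). With rosiglitazone it was lost under these 5 at 0.82, 0.82, 0.81, 0.82 and 0.82, and with quantile normalization (0.73), median centring (0.83), the actin ratio as a covariate (0.80) and without rosiglitazone and pioglitazone replicate 2 (1.06). With troglitazone it was lost under the same 5 at 0.85, 0.85, 0.97, 0.85 and 0.85, and with quantile normalization (0.61), the actin ratio (0.80) and without the same pair of arrays (0.85). Fewer arrays or more probe sets tested are part of some of these fits; otherwise the cause was not tested.

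The counts of called glycerol genes (2, 5 and 5 of 34 with pioglitazone, rosiglitazone and troglitazone) were 0, 0 and 0 in set 1 alone and with no intensity trend, 1, 1 and 0 with no set term, 0, 1 and 0 in a fit of only the groups compared, and 1, 1 and 3 without rosiglitazone and pioglitazone replicate 2. The count with pioglitazone was 1 with quantile normalization, 6 with median centring and 1 with the actin ratio; with rosiglitazone it was 3 with median centring, and with troglitazone 2 with no filter. With 1 array left out the counts ranged from 1 to 2, 1 to 6 and 1 to 5.

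Of 43 calls of list genes and Gpd1 with the 3 drugs, 6 held with no intensity trend, 11 in a fit of only the groups compared, 14 in set 1 alone and 19 with no set term. The 6 were Acaa1b with all 3 drugs, Pparg with pioglitazone and troglitazone, and Plin2 with troglitazone.

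Replicate numbers met no rule for pairing: 3 of 15 pairs of arrays with the same number had deviations from their group means that correlated over 0.1. These were the 3 pairs of replicate 4, which is set 2 (0.289 to 0.362), whereas pairs of replicates 1 and 2 lay between -0.099 and 0.095. With the replicate number as a block in place of the set, Pck1 stood at 2.07, 1.26 and 0.11 with the 3 drugs and Gpd1 by 92592_at at 1.24, 0.82 and 0.85 (limma adjusted p = 0.0106, 0.0428 and 0.0392), and the counts stayed at 2, 5 and 5, so the block changed no call.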

Other observations

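The other enzymes of glucose production were read beside Pck1, because in liver they act with it. Of 7 measured genes 0 passed with any drug in limma, and 0 had an unadjusted p under 0.05. G6pc and Fbp1 are given as examples chosen after their values were seen. G6pc, the catalytic subunit that frees glucose, had signals of 471.8 and 188.3 with pioglitazone, 182.3 to 354.3 with rosiglitazone and 136.6 to 207.7 with troglitazone, against 64.4 to 296 with vehicle (limma adjusted p = 0.835, 0.679 and 0.998). Fbp1, fructose bisphosphatase, stood at log2 differences of -0.58, -0.31 and -0.43 (adjusted p = 0.685, 0.787 and 0.842). These genes were dim, so changes of the size of Pck1 could not be resolved for G6pc with pioglitazone, where the standard error was 0.69.

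Of the other genes with the full order seen for Pck1, Ogdh and Cdc37 had narrower ranges. Dpysl4 was at the floor of 73.7 on every vehicle array and at 103.4 and 121.1 with pioglitazone, so its range is cut off by the floor. Ogdh, of the citric acid cycle, had signals of 3408.1 and 3503.5 with pioglitazone, 2781.3 to 3140.7 with rosiglitazone and 2516.1 to 2625.7 with troglitazone, against 1536.7 to 2009 with vehicle. Its troglitazone arrays, unlike those of Pck1, also lay above every vehicle array. Cdc37, a partner of the chaperone Hsp90, had 1571.1 and 1711 with pioglitazone, 1220.8 to 1476.9 with rosiglitazone and 947.8 to 1040.2 with troglitazone, against 900 to 1132.2 with vehicle. These genes were singled out after their values were seen.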
